A study of Mus musculus with 2 samples.

Results

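The regions described here are the stretches enriched for YFP-tagged H2A.Z across the 4 Hox clusters of mouse embryonic stem cells. A deposited region was included when it overlapped one of 4 mm9 windows by at least 1 bp. The windows were chr6 from 52.10 to 52.22 Mb (HoxA), chr11 from 96.05 to 96.24 Mb (HoxB), chr15 from 102.74 to 102.88 Mb (HoxC) and chr2 from 74.49 to 74.61 Mb (HoxD). They held 697 of the 421421 regions in the 4 deposited lists, and no region crossed the edge of a window. The windows were drawn around 38 listed Hox genes, 10 in HoxA, 10 in HoxB, 9 in HoxC and 9 in HoxD.

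The chromatin came from 2 libraries, 1 per group. In the wild-type group the cells expressed H2A.Z fused to YFP, and in the K3R3 group the same fusion with its 3 C-terminal lysines, given in the labels as positions 119, 120 and 123, changed to arginine. Both transgenes had a CMV promoter under a drug-inducible rtTA system, were carried by lentivirus into KH2 cells, and were induced with doxycycline at 1 µg/ml before YFP-positive cells were sorted. The labels give the strain of both as V6.5 (129SvJaexC57BL/6) and their sex as male. The antibody in both was Abcam Ab290, which recognises GFP and its variant YFP, so the tagged protein alone was mapped, and untagged H2A.Z was not. Both lines also carried a hairpin against the 3′ UTR of the endogenous H2A.Z transcript. The labels list the following hairpins, shown because they set what the tagged histone replaced, without saying which one was used for these libraries.
sh#2: aacagctgtccagtgttggtg
sh#5: aattagccttccaaccaacca

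The histone variant H2A.Z takes the place of H2A, mainly in nucleosomes beside promoters and enhancers. In embryonic stem cells it is found at active genes and at silent developmental genes held by Polycomb complexes, whose Ring1b subunit can attach ubiquitin to its C-terminal lysines. The study asks how that mono-ubiquitylation acts in poised chromatin. Hox genes encode homeodomain transcription factors that set position along the body axis, and they are a classic example of silent, poised genes in these cells. They lie in the order in which they act: Hoxb1 and Hoxa2 act early and in the hindbrain, Hoxa9, Hoxb9 and Hoxc9 in the trunk, and Hoxa13 and Hoxd13 late and at the ends of the limbs. In the GRCm38 gene table all 38 genes were found. The order from the low to the high coordinate runs from Hoxa2 to Hoxa13 in HoxA, and from Hoxb13 to Hoxb1, Hoxc13 to Hoxc4 and Hoxd13 to Hoxd1 in the others. That table is of another build than the regions, so individual Hox genes, their exons, introns and UTRs could not be placed under the regions, and the order of genes is used only to orient each window. With 1 library per group there is no replicate check and no p-value. The lists carry positions only, with no height, and read depth is unknown. The lists named 1e-09 are called looser and those named 1e-12 stricter, and the looser lists were used unless stated.

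**Figure D1:**
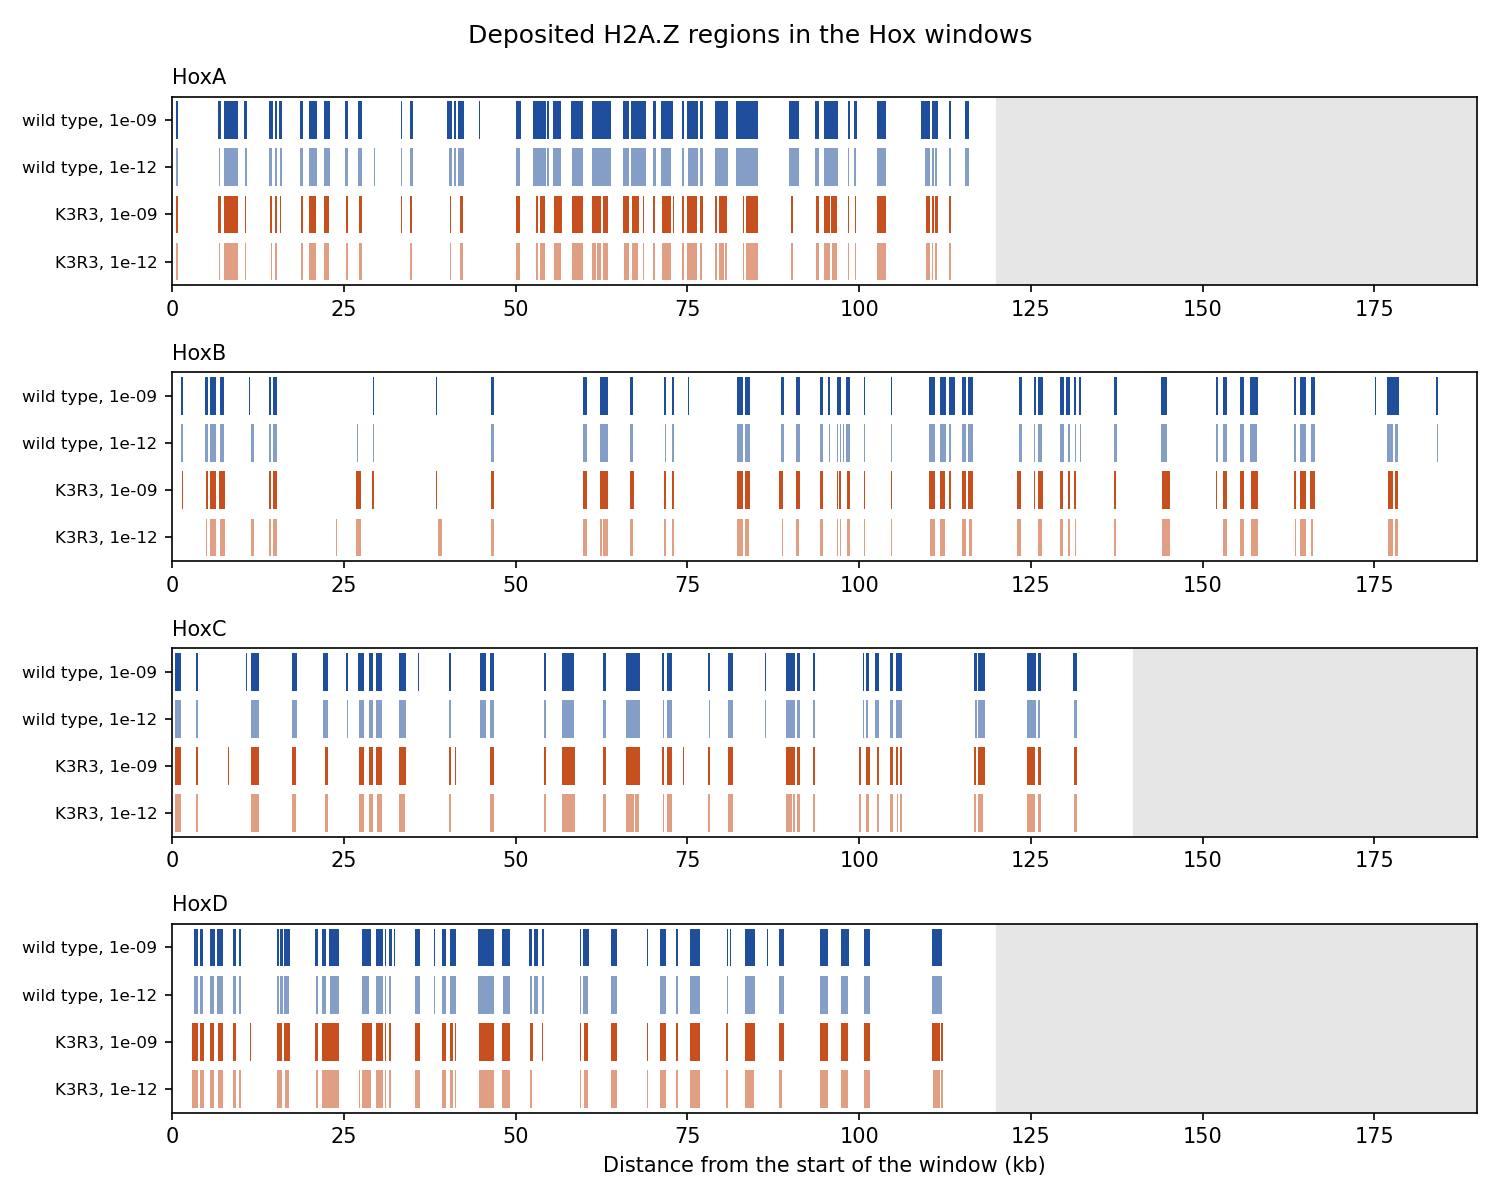
Every deposited region in the 4 Hox windows. The horizontal axis is the distance from the start of the window in kb, each bar is a region at its true width, and the rows are the looser (1e-09) and stricter (1e-12) lists of both libraries; grey marks the space beyond a shorter window. Regions of both libraries lie at nearly the same places, and the wild-type bars of HoxA are wider than those of K3R3.

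All 4 clusters were densely covered by both proteins. In the wild type, regions covered 34.3% of the HoxA window, 13.9% of HoxB, 17.0% of HoxC and 24.2% of HoxD. In K3R3 they covered 24.4%, 12.8%, 15.7% and 23.6%. The order of the clusters was thus the same in both libraries, with HoxA the most covered and HoxB the least. On the remainder of the same chromosomes the wild-type share ranged from 2.16% (chr15) to 3.44% (chr11) and the K3R3 share from 1.80% (chr6) to 3.74% (chr11). HoxA was covered 13.9 times as densely as the rest of chr6 in the wild type and 13.6 times in K3R3. The folds were 10.5 and 9.05 for HoxD, 7.86 and 6.59 for HoxC, and 4.05 and 3.42 for HoxB.

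The windows stood near the top of their chromosomes. Each chromosome was tiled with windows as long as its Hox window. None of the other 1218 windows of chr6 reached the wild-type share of HoxA, and 1 reached its K3R3 share. For HoxD, 3 of 1487 other windows of chr2 had as high a share in the wild type and 5 in K3R3. For HoxC these were 10 and 14 of 714, and for HoxB 20 and 33 of 623. HoxB, the longest window with 190 kb, was thus the least extreme. Coverage mostly fell off outside the windows. Stretches of equal length beside HoxD were covered to 1.58% and 1.35% in the wild type and to 2.42% and 1.35% in K3R3. Below HoxC, on the side of Hoxc13, only 0.0893% and 0.50% were covered, but above it, on the side of Hoxc4, 7.29% and 8.61%. Above HoxA, on the side of Hoxa13, the shares were 8.90% and 8.0%, against 1.33% and 0.938% below it. Beside HoxB they lay between 3.07% and 5.57% in both libraries.

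Coverage varied strongly along each cluster. In HoxA it was concentrated between 50 and 100 kb from the start of the window, where each 10 kb bin was covered to between 44.0% and 58.8% in the wild type and between 28.0% and 48.3% in K3R3. The bin from 30 to 40 kb, by contrast, was covered to 5.00% and 3.75%. HoxB had a sparse stretch from 20 to 60 kb, with at most 4.50% per bin in the wild type and at most 9.0% in K3R3, after a covered start (24.0% and 22.5% in the first 10 kb). Beyond it, fuller and sparser bins were mixed: the bin from 110 to 120 kb was covered to 37.8% and 31.8%, but that from 100 to 110 kb to 3.25% and 4.0%, and the last, from 180 to 190 kb, to 2.75% and 0%. This sparse stretch lies toward the Hoxb13 end, where in the gene table Hoxb13 stands first and Hoxb9, the next listed Hox gene, follows it. In HoxD the fullest bins were those from 20 to 30 kb, covered to 40% (wild type) and 46.3% (K3R3), and from 40 to 50 kb, covered to 44.0% and 41.3%, toward the Hoxd13 end. HoxC was the most even, with every bin but the last between 11.5% and 27.0% in the wild type.

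**Figure D2:**
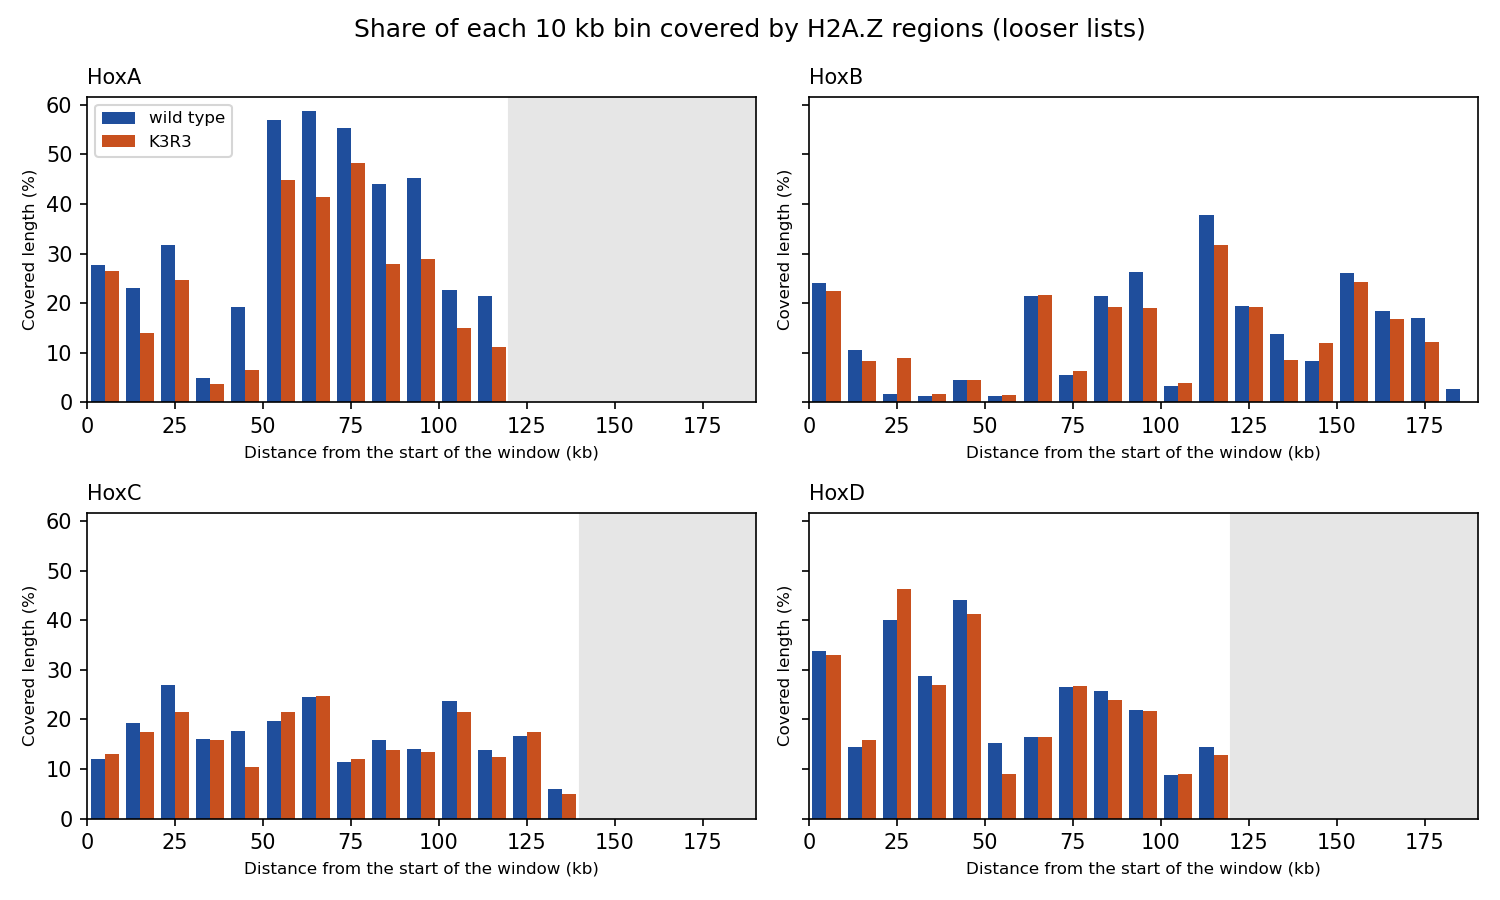
Share of each 10 kb bin covered by regions of the looser lists, in percent, against the distance from the start of the window in kb; paired bars are wild type and K3R3, and grey marks the space beyond a shorter window. In HoxA the wild-type bar is the higher in all 12 bins, while in HoxB, HoxC and HoxD either library can be the higher.

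The longest stretch without a region of either library between neighbouring regions was 5850 bp in HoxA (chr6:52100901-52106750), 13000 bp in HoxB (chr11:96096851-96109850), 10475 bp in HoxC (chr15:102846276-102856750) and 9075 bp in HoxD (chr2:74591601-74600675). The median gap between neighbouring regions in HoxA was 1225 bp in either library, and in HoxB 1850 bp. HoxC had the widest median gaps, with 2450 bp (wild type) and 2550 bp (K3R3). HoxB nevertheless had the fewest regions per 10 kb, 2.63 (wild type) and 2.58 (K3R3). In HoxD the medians were 1425 and 1675 bp.

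The wild type and K3R3 had nearly the same number of regions in every cluster. HoxA held 44 wild-type and 48 K3R3 regions, HoxB 50 and 49, HoxC 38 and 37, and HoxD 44 and 40. The wild-type to K3R3 ratios of these numbers were 0.917 (95% exact binomial interval 0.595 to 1.41), 1.02 (0.674 to 1.55), 1.03 (0.636 to 1.66) and 1.10 (0.70 to 1.73). Each interval covers counting error only and includes 1. On the rest of the chromosomes the ratios were 1.29 on chr6, where the wild-type list is in excess throughout, 0.866 on chr11, 0.842 on chr15 and 0.849 on chr2. These values also lie within the intervals of the clusters. The intervals treat the regions of each library as drawn separately, though most overlapped one of the other library. They therefore do not measure the spread of the ratio, and a departure of a cluster from its chromosome was not tested.

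The wild type covered more length than K3R3 in HoxA and slightly more in the other 3 clusters. Wild-type regions covered 41125 bp of HoxA and K3R3 regions 29325 bp, a ratio of 1.40, beside 1.37 on the rest of chr6. In HoxB they covered 26475 and 24250 bp, a ratio of 1.09, where the rest of chr11 had 0.920. In HoxC they covered 23775 and 22025 bp, a ratio of 1.08 beside 0.905 on the rest of chr15. In HoxD they covered 29025 and 28300 bp, a ratio of 1.03 beside 0.887 on the rest of chr2. The total wild-type excess of HoxA was thus close to that of the rest of chr6. In HoxA the ratio of region numbers was 0.917 and that of mean widths 1.53. On the rest of chr6 they were 1.29 and 1.06. Whether the make-up of the excess departed from that of chr6 was not tested. The comparison was not matched for coverage, which was 34.3% in HoxA and 2.47% on the rest of chr6 in the wild type. In HoxB, HoxC and HoxD the ratio of covered length was 1.19, 1.19 and 1.16 times that of the rest of the chromosome. From the numbers of regions, which cover counting error only, the 95% intervals of the ratio were 0.910 to 2.16 in HoxA, 0.721 to 1.65 in HoxB, 0.668 to 1.75 in HoxC and 0.653 to 1.61 in HoxD. They include 1 and the values of the chromosomes. They are scaled from the intervals of the region numbers, as if the regions of each library were drawn separately. Most regions overlapped one of the other library, so these intervals do not measure the spread of a length ratio.

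Windows as long as the Hox windows varied widely in this ratio. Among windows with at least 5% covered on average over both libraries, a limit set after the data were seen, 63 of 170 on chr6 had a ratio at least as high as HoxA, and 163 had one above 1. On chr11 the ratio of HoxB was reached by 26 of 170 such windows, on chr15 that of HoxC by 26 of 107, and on chr2 that of HoxD by 60 of 243. The medians over these windows were 1.30, 0.935, 0.934 and 0.903. The Hox windows therefore lay above the median of these windows and well within their range. Most of the other windows were less covered than the Hox window of their chromosome, so the comparison was not matched for coverage.

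**Figure D3:**
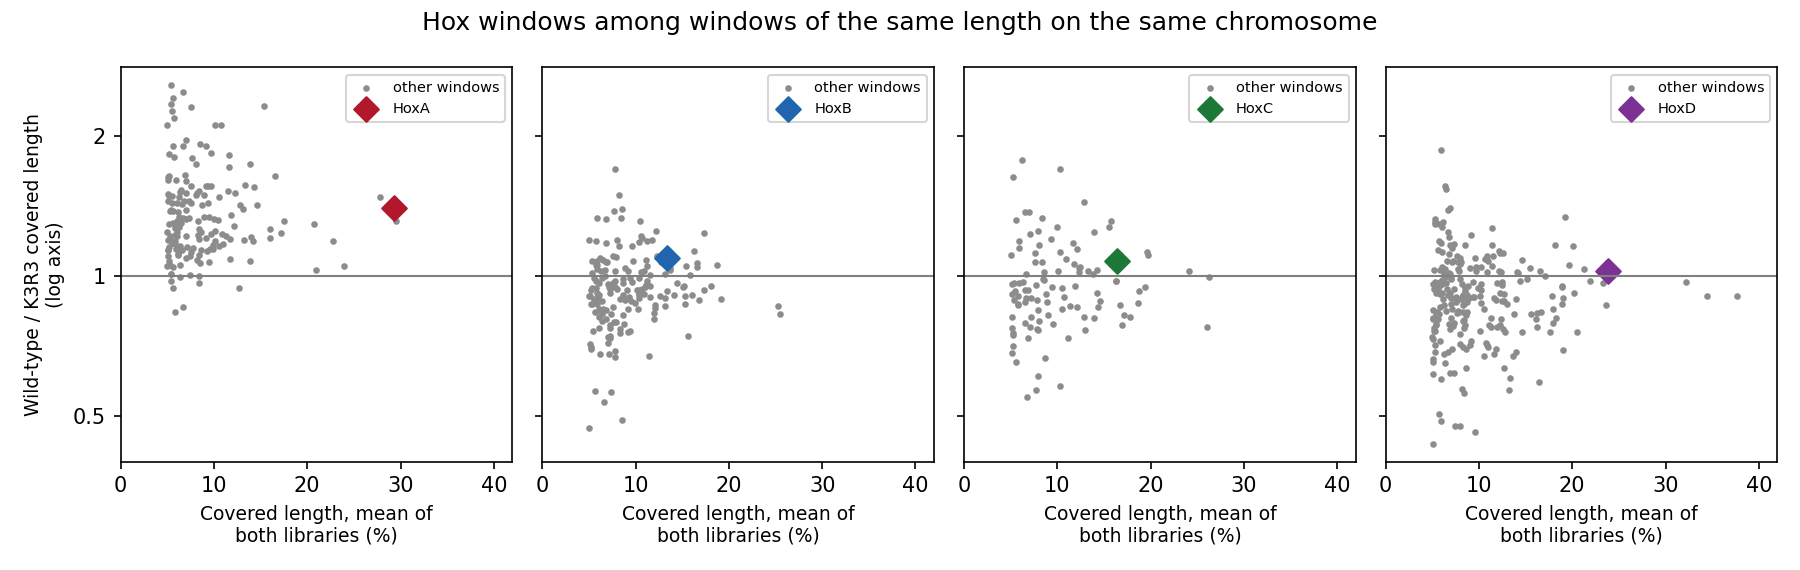
Wild-type to K3R3 ratio of covered length (log axis) against the covered share averaged over both libraries in percent, for windows of the same length with at least 5% covered. Grey points are the other windows of the chromosome, and the coloured diamond is the Hox window. The diamonds lie at 1.40, 1.09, 1.08 and 1.03, among the grey points.

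Most regions of either library in the clusters overlapped a region of the other by at least 1 bp. Of the wild-type regions, 40 of 44 in HoxA (90.9%, 95% Wilson interval 78.8 to 96.4), 45 of 50 in HoxB (90.0%, 78.6 to 95.7), 32 of 38 in HoxC (84.2%, 69.6 to 92.6) and 37 of 44 in HoxD (84.1%, 70.6 to 92.1) overlapped a K3R3 region, against 81.6% of all wild-type regions. Of the K3R3 regions, all 48 in HoxA (100%, 92.6 to 100), 47 of 49 in HoxB (95.9%, 86.3 to 98.9), 33 of 37 in HoxC (89.2%, 75.3 to 95.7) and 38 of 40 in HoxD (95%, 83.5 to 98.6) overlapped a wild-type region, against 71.9% of all K3R3 regions. The wild-type intervals of HoxB, HoxC and HoxD include the shares on the rest of their chromosomes (84.0%, 83.2% and 83.9%), and that of HoxA lies above the 66.8% of chr6. The K3R3 intervals of all 4 clusters lie above the shares of their chromosomes, which were 88.7% on chr6 and 72.9%, 70.6% and 70.9% on chr11, chr15 and chr2. Hox regions were also wider than most, with medians of 575 bp (wild type) and 475 bp (K3R3) against 325 bp over all regions of either list. The clusters were also covered more densely than the rest of their chromosomes. The shares were matched for neither width nor coverage.

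By length, the 2 proteins overlapped most in HoxD and least in HoxA. The Jaccard index (shared length divided by the length under a region of at least 1 library) was 0.840 in HoxD, 0.823 in HoxC, 0.757 in HoxB and 0.708 in HoxA, against 0.631 to 0.667 on the rest of these chromosomes. Medians over the windows with at least 5% covered were 0.665 on chr6, 0.682 on chr11, 0.676 on chr15 and 0.677 on chr2. As stated above, most of these windows were less covered than the Hox window of their chromosome. The index of the Hox window was reached by 64 of 170 windows on chr6 (HoxA), 28 of 170 on chr11 (HoxB), 4 of 107 on chr15 (HoxC) and 14 of 243 on chr2 (HoxD). In HoxA the mismatch ran one way. K3R3 regions lay to 99.6% within wild-type regions, with 125 bp outside them, whereas 11925 bp of the wild-type length was not covered in K3R3. In HoxB, HoxC and HoxD the wild-type-only length was 4625, 3100 and 2850 bp and the K3R3-only length 2400, 1350 and 2125 bp.

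The K3R3 regions of HoxA lay where the wild-type regions lay and were narrower. Wild-type and K3R3 regions that overlapped were joined into shared places, and their total widths were compared in each. HoxA had 40 shared places. The wild type was wider at 38 of them, the widths were equal at 2, and K3R3 was wider at none. Genome-wide, the wild type was wider at 37.1% of shared places and on the rest of chr6 at 66.4%. The log2 ratio of the widths, wild type over K3R3, averaged 0.50 (SD 0.46 over 40 places) in HoxA and 0.26 (SD 0.67 over 5036 places) on the rest of chr6. The part of the chromosome-wide wild-type excess in the widths of HoxA was not tested. Median region widths in HoxA were 637.5 bp (wild type) and 375 bp (K3R3). In the other 3 clusters they were 525 and 500 bp (HoxB), 537.5 and 475 bp (HoxC), and 600 and 687.5 bp (HoxD).

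At places where each library had a single region, the edges showed the same. In HoxA there were 32 such pairs with 64 edges. The wild-type edge lay outside the K3R3 edge 50 times, at the same position 10 times and inside it 4 times, then by at most 25 bp. In HoxB the wild type reached farther at 44 of 86 edges and K3R3 at 18, in HoxC at 25 and 16 of 62, and in HoxD at 20 and 22 of 60. On the rest of chr6 the wild type reached farther at 54.0% of edges and K3R3 at 18.6%. On the rest of the other 3 chromosomes the wild type reached farther at 27.3% to 29.2% and K3R3 at 43.6% to 45.6%. The pairs were centred alike in all clusters, with midpoints a median of 12.5 to 31.25 bp apart.

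**Figure D4:**
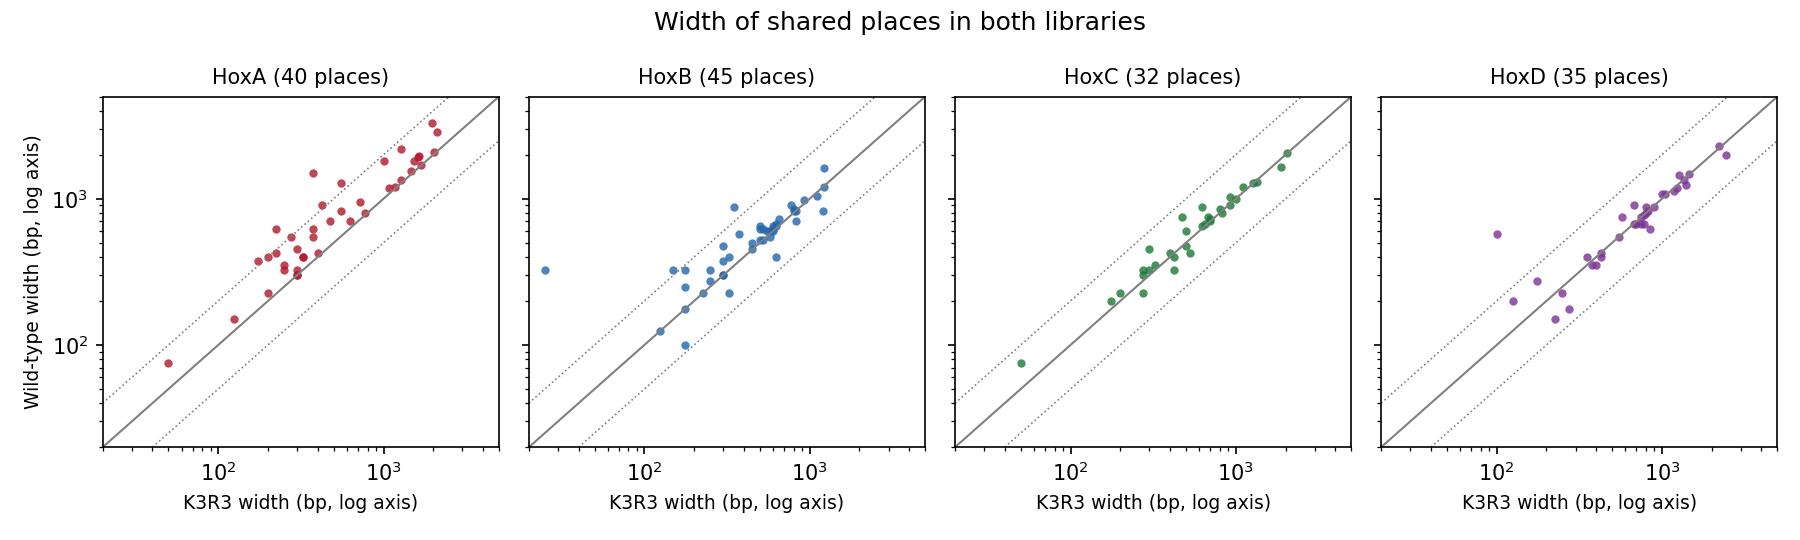
Width of each shared place in the wild type against its width in K3R3, in bp on log axes. The solid line marks equal widths and the dotted lines a 2-fold difference. The 40 HoxA places lie on or above the line of equality, and those of HoxB, HoxC and HoxD scatter around it, with 1 place far to the left in HoxB and 1 in HoxD.

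Large differences in width were few. The wild type was over 2-fold wider at 5 shared places of HoxA, 3 of HoxB, 0 of HoxC and 1 of HoxD, against 3.66% of shared places genome-wide. On chr6 outside HoxA these were 426 of 5036 places, beside the 5 of 40 in HoxA. K3R3 was over 2-fold wider at no Hox place, against 6.19% genome-wide and 85 of 5036 on the rest of chr6. Of the Hox places over 2-fold wider in the wild type, 2 were at least 1000 bp wide, both in HoxA. At chr6:52189751-52191250 the wild type had a region of 1500 bp and K3R3 one of 375 bp, a 4.00-fold difference, and at chr6:52209076-52210350 the widths were 1275 and 550 bp, or 2.32-fold. The largest ratio in HoxB, 325 bp against 25 bp at chr11:96145451-96145775, and that in HoxD, 575 bp against 2 regions with 100 bp in all at chr2:74542676-74543250, rest on very narrow K3R3 regions.

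On average the widths were closer to equal in the other 3 clusters than in HoxA. The wild type was wider at 28 of 45 places in HoxB and K3R3 at 8, with a mean log2 ratio of 0.22 (SD 0.66), which was 0.14 without the place of the largest ratio and 0.025 after regions within 1000 bp of each other were joined. In HoxC the wild type was wider at 19 of 32 and K3R3 at 9, with a mean of 0.09 (SD 0.24). In HoxD the wild type was wider at 12 of 35 and K3R3 at 15, with a mean of 0.06 (SD 0.51), which became -0.01 without the place of the largest ratio and 0.13 after the same joining. Neither library was thus wider throughout HoxD. On the rest of chr11, chr15 and chr2 the means were -0.12, -0.15 and -0.15. There the wild type was wider at 34.9%, 33.2% and 32.3% of shared places. The mean of the window thus exceeded that of the rest of its chromosome by 0.34 in HoxB, 0.24 in HoxC and 0.21 in HoxD. In HoxA it did so by 0.24. At places of at least 500 bp the means of HoxB, HoxC and HoxD were 0.11, 0.07 and 0.09. The rest of their chromosomes had -0.05, -0.09 and -0.09. At places of at least 1000 bp (4, 7 and 10) the cluster means were -0.06, 0.005 and -0.02, against -0.02, -0.05 and -0.08. In these clusters the difference was thus smaller or reversed at the widest places. In HoxA the mean over 15 places of at least 1000 bp was 0.47, against 0.30 on the rest of chr6.

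The 3 widest HoxA regions of the wild type, chosen for that width, were each divided in K3R3. The widest, 3275 bp at chr6:52182026-52185300, held 2 K3R3 regions that covered 60.3% of it. The second, 2850 bp at chr6:52161051-52163900, held 2 that covered 73.7%, and the third, 2200 bp at chr6:52166851-52169050, held 2 that covered 58.0%. The fourth, 2075 bp at chr6:52107576-52109650, held 1 K3R3 region of 2025 bp. In all, 8 of the 40 shared places of HoxA had 1 wild-type region and several K3R3 regions, and 0 had the reverse. On the rest of chr6 these were 171 and 25 of 5036. These counts were not matched for width: the median wild-type region there was 300 bp wide, against 637.5 bp in HoxA. The widest K3R3 region of HoxA, 2025 bp at chr6:52107601-52109625, lay wholly within a wild-type region, as did the K3R3 regions of 1775 bp (chr6:52183501-52185275) and 1675 bp (chr6:52158151-52159825).

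In HoxD both kinds of division occurred, with 3 shared places that had 1 wild-type and several K3R3 regions and 2 that had the reverse. The widest K3R3 region, 2450 bp at chr2:74511851-74514300, spanned 2 wild-type regions that covered 80.6% of it, one of them the wild-type region of 1475 bp at chr2:74512826-74514300. The widest wild-type region of HoxD, 2300 bp at chr2:74534576-74536875, was covered to 96.7% by a K3R3 region of 2225 bp (chr2:74534601-74536825). At chr2:74565351-74566825 a wild-type region of 1475 bp was matched by a K3R3 region of 1450 bp with the same start.

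The widest HoxC regions were almost superimposed. At chr15:102806026-102808075 the wild-type region was 2050 bp wide and was covered to 98.8% by a K3R3 region of the same width that began 25 bp earlier. A K3R3 region of 1875 bp with the same start held the whole wild-type region of 1650 bp at chr15:102796801-102798450. The wild-type region of 1300 bp at chr15:102829351-102830650 lay within a K3R3 region of 1350 bp with the same end.

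Wide regions were rare in HoxB, where 3 of 50 wild-type and 3 of 49 K3R3 regions reached 1000 bp, against 15 of 44 and 11 of 48 in HoxA. The widest wild-type region, 1625 bp at chr11:96226901-96228525 toward Hoxb1, was covered to 75.4% by 2 K3R3 regions. The next, 1200 bp at chr11:96112251-96113450, was enclosed by the widest K3R3 region of 1225 bp (chr11:96112226-96113450), and the third, 1050 bp at chr11:96206951-96208000, was covered to 97.6% by a K3R3 region of 1100 bp (chr11:96206976-96208075). The K3R3 region of 1200 bp at chr11:96194026-96195225 reached beyond its wild-type partner, which covered 62.5% of it.

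Regions found in 1 library alone were few and mostly narrow. A region was called library-specific when it stood in the stricter list of its library and had no partner among the looser regions of the other. In the wild type these were 4 of 45 stricter regions in HoxA (8.89%) and 6 of 53 in HoxB (11.3%). In HoxC they were 4 of 35 (11.4%) and in HoxD 4 of 41 (9.76%), against 17.8% of all stricter wild-type regions. On the rest of the chromosomes the shares were 31.7% on chr6 and 15.9%, 15.7% and 15.7% on chr11, chr15 and chr2. In K3R3 they were 0 of 49 in HoxA, which at 3 counts allows a share of up to 6.12%. HoxB had 4 of 48 (8.33%), HoxC 2 of 36 (5.56%) and HoxD 2 of 40 (5.0%), against 25.7% of all stricter K3R3 regions. Here the rest of chr6 had 9.91%, below the 24.9%, 26.1% and 26.7% on chr11, chr15 and chr2. The counts in the clusters are small, and a departure of a cluster from its chromosome was not tested.

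Of these regions, 4 were at least 500 bp wide. The widest was a wild-type region of 850 bp in HoxC (chr15:102784826-102785675), with no K3R3 region over it in either list. In HoxA a wild-type region of 600 bp (chr6:52215401-52216000), the last of its list in the window on the side of Hoxa13, had no K3R3 region either. In the sparse part of HoxB, K3R3 had a region of 725 bp (chr11:96076801-96077525), of which the stricter wild-type list covered 24.1%. A further K3R3 region there, of 500 bp (chr11:96088726-96089225), stood in the stricter K3R3 list alone and overlapped no region of the looser K3R3 list. It therefore rests on a single list.

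The stricter lists held less length in every cluster. They covered 93.6%, 91.7%, 94.6% and 93.1% as much of HoxA, HoxB, HoxC and HoxD as the looser lists in the wild type, and 91.4%, 89.6%, 89.1% and 93.8% in K3R3. Of the stricter wild-type regions, 4 of 174 in the Hox windows overlapped no looser region of their own library, against 6.14% of all, and of the stricter K3R3 regions 5 of 173, against 6.81%. HoxB held 3 of those in each library.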

How the data were processed

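YFP-tagged H2A.Z was mapped by ChIP-seq in 1 wild-type and 1 K3R3 library. The authors deposited 4 region lists, looser (1e-09) and stricter (1e-12) for each library, as start and end positions with no score, per the file headers. Bowtie 0.12.3, bedtools and mm9 are named in the submitters' processing notes. Which program called the regions, with which filters and control, is not given in the sources used here. Positions were multiples of 25 bp.

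Regions overlapping a Hox window were taken from each list. Covered length, overlap (1 bp), Jaccard index, shared places, gaps and 10 kb bins were computed with Python 3.11.15, numpy 2.4.6, pandas 2.3.3 and scipy 1.17.1, and figures with matplotlib 3.10.9. Functions were tested on simulated regions and against bedtools 2.31.1. Named regions were the 3 widest of each library per cluster, library-specific regions of at least 500 bp, and shared places of over 2-fold difference with at least 1000 bp. Places named for the largest ratio were chosen after their values were seen. Intervals (95%) cover counting error and treat regions as independent. Read depth is unknown. The windows, genes and comparisons were chosen with earlier results of these data known. Alternatives were the stricter lists, both lists united, joining within 1000 bp, windows widened by 10 kb, and overlaps of 50%.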

Additional observations from a re-analysis of the deposited data

How the results depend on the processing

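Values kept their direction and stayed within their interval, or for counts within 1.5 times, in 176 of 192 recomputations. The cause of the others was not tested. The intervals were wide, at 24.9% to 46.0% for the wild-type covered share of HoxA. Some alternatives changed little, as uniting the lists gave 34.4% for that share. The number of values that held is therefore no measure of robustness. The order of region numbers in HoxC turned in the stricter lists, with a wild-type to K3R3 ratio of 0.972. In HoxD the mean log2 width ratio at shared places turned to -0.017 with 1 region of each library and to -0.012 without the place of the largest ratio. Joining regions within 1000 bp, which lowers numbers by construction, gave 26 wild-type and 28 K3R3 regions in HoxA, 31 and 30 in HoxB, and 25 and 25 in HoxD, and raised the covered share of HoxB to 19.6% and 18.5%. The same joining moved the mean log2 width ratio from 0.22 to 0.025 in HoxB and from 0.06 to 0.13 in HoxD, within the intervals of these means over places. With the HoxD window widened by 10 kb, its ratio of covered length was 1.00. A reciprocal overlap of 50% was met by 68.2% of wild-type and 62.5% of K3R3 regions in HoxA, and by 83.7% of K3R3 regions in HoxB and 82.5% in HoxD. If K3R3-only regions of HoxB could have no partner in either wild-type list, 2 were left. The means over places of at least 500 bp or 1000 bp and those without the largest ratio were chosen after seeing the data. Libraries could not be paired by replicate, because the comparison rests on 1 library of each kind. Widths and edges were compared place by place. Narrow regions depend on read depth, which is unknown.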
